A study of Mus musculus with 11 samples.

Results

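The genes described here are 10 genes of the machinery that loads peptides onto major histocompatibility complex (MHC) class I molecules in the mouse: B2m, H2-K1, H2-D1, Tap1, Tap2, Tapbp, Psmb8, Psmb9, Psmb10 and Psme1. They were found on Affymetrix arrays as the probe sets that the platform annotation assigns to 1 of these symbols and to no other gene. This gave 26 of the 22626 probe sets that are not controls, for 10 of the 12393 genes with such a probe set. Of the 26 probe sets, 21 were bright enough on enough arrays to be tested, among 14988 tested in all. Each gene is represented by its probe set with the highest mean log2 signal, and all 10 of these were tested.

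Adventitia, the outer layer of the artery wall, was cut by laser from frozen sections of abdominal aortas, taken from males 78 weeks old. The first group, ATLO (n = 4 arrays), held artery tertiary lymphoid organs, which are lymphocyte aggregates in the adventitia next to atherosclerotic plaques. The second, outside-lesion adventitia (n = 4), is placed by its tissue label away from the lesions, whereas the design text calls its mice lesion-free. Both came from the strain B6.129P2-Apoe<tm1Unc>/J, which lacks apolipoprotein E, on standard chow. For these 8 arrays 200 sections of 10 micrometres were pooled per sample, and RNA was amplified by in vitro transcription for 68 h. The wild-type group (n = 3) came from C57BL mice. Its RNA was purified with a different kit and amplified for 24 h, and its titles carry the letters PNS, which no label explains, so genotype and protocol cannot be told apart in any comparison with wild type. The labels leave unsaid whether each array stands for its own mouse, so p-values reflect the spread among these samples, which may be technical.

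MHC class I molecules present peptides from inside the cell to CD8 T cells and are recognised by receptors of natural killer cells. A class I molecule is made of a heavy chain, here H2-K1 or H2-D1, and the light chain beta-2 microglobulin, encoded by B2m. Its peptides come mostly from the proteasome, in which the inducible subunits encoded by Psmb8, Psmb9 and Psmb10 can replace the constitutive subunits encoded by Psmb5, Psmb6 and Psmb7, giving the immunoproteasome. Psme1 encodes a subunit of the PA28 activator, which docks onto the proteasome. The Tap1 and Tap2 products form the transporter that carries peptides into the endoplasmic reticulum, where the Tapbp product, tapasin, holds the transporter and the class I molecule together. Interferon-gamma is known to induce these genes, and cells of blood origin express the immunoproteasome without added interferon.

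Promoter sequences from RefSeq (GRCm38.p6) are shown for the light chain, both heavy chains, and for Tap1 and Psmb8, which were higher in ATLO. The table used held entries for 9 of the 10 genes, with 2 for H2-K1, of which the first is shown. Each line gives the 250 bases before the annotated start, 5′ to 3′ on the gene's own strand, with motif matches in capitals.
B2m, chr2:122147437-122147686 (plus strand): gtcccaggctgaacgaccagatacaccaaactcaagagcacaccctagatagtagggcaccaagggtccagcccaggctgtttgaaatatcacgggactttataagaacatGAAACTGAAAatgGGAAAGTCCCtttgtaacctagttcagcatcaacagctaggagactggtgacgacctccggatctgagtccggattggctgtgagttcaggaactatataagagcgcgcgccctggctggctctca
H2-K1, chr17:34000348-34000597 (minus strand): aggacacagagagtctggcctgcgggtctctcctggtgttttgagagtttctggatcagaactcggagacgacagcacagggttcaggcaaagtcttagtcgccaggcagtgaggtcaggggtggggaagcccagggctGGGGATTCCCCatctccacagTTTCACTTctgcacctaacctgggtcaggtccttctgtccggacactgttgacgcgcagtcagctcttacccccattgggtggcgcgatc
H2-D1, chr17:35262844-35263093 (plus strand): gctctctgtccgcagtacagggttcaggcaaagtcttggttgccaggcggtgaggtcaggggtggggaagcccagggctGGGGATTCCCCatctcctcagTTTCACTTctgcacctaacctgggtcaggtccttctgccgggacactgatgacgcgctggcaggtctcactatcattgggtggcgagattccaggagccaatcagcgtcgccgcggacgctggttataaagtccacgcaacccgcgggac
Tap1, chr17:34187306-34187555 (plus strand): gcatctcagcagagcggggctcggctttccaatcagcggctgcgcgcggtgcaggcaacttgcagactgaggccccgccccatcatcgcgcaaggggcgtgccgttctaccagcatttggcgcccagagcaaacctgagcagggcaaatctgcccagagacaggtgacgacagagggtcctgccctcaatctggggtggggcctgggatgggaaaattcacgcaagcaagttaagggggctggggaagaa
Psmb8, chr17:34197945-34198194 (plus strand): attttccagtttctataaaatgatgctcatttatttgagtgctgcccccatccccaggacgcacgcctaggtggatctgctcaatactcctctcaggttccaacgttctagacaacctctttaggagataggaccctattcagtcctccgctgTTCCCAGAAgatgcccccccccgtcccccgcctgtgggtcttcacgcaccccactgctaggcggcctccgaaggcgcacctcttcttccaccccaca

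Motifs were searched on both strands in windows that also include the first 50 bases after the start. In B2m the first capital stretch matched the interferon-stimulated response element (GAAA, any 2 bases, GAAA), which 3.4% of all 32851 promoter windows hold. It also contains the shorter interferon regulatory factor motif AANNGAAA, which 23.9% hold, and the second stretch matched the NF-kappaB consensus, which 8.5% hold. H2-K1 and H2-D1 carried the same letters as each other, an 11-base stretch with 2 overlapping NF-kappaB matches followed by AANNGAAA on the opposite strand. Psmb8 matched the interferon-gamma activated sequence TTCNNNGAA, which 8.3% hold. Psme1, which is not shown, matched the interferon-stimulated response element at bases 9 to 18 after its start. The windows of Tap1, Tapbp, Psmb9 and Psmb10 held no match to these 4 motifs. Tap1 and Psmb9 are transcribed in opposite directions with 225 bases between their start sites, so their windows share 275 bases and the Tap1 line shows most of the Psmb9 promoter as well. A match is a run of letters and was not tested as a binding site.

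The deposited values are signal intensities that the authors had scaled to a common level per array, and no member's representing probe set fell to the floor of 35.1 used before taking log2. Apoe, the gene disrupted in the Apoe-deficient strain, read 86.9 to 150.2 in ATLO and 45.9 to 179.7 in outside-lesion adventitia, against 11969 to 13164 in wild type, as the labels state. The actin 3′ to 5′ ratio, which rises as RNA is shortened, was 1.714 to 8.137 in ATLO, 6.221 to 11.99 in outside-lesion and 4.194 to 5.405 in wild-type samples. All 8 fibroblast markers fixed for the adventitia were measured.

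In ATLO against outside-lesion adventitia, the inducible proteasome subunits, Tap1 and Tapbp were higher by the representing probe set of each gene. By that probe set B2m, the heavy chains, Tap2 and Psme1 did not pass the test. Other probe sets of H2-K1 and H2-D1 did pass, as given below. A gene is called here where limma's Benjamini-Hochberg adjusted p over all 14988 tested probe sets was under 0.05. By that rule 5 of the 10 genes were higher and 0 lower. Among all tested probe sets 31.9% were called, 17.9% as higher and 13.9% as lower. The median log2 change of the 10 genes was 0.44, from -0.13 to 1.55, against a median of 0.11 over 9045 genes tested. The arrays of the 2 groups did not overlap for 6 of the 10 genes, all higher in ATLO. Among all tested probe sets 30.4% did not overlap, 17.2% with ATLO higher.

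**Figure D1:**
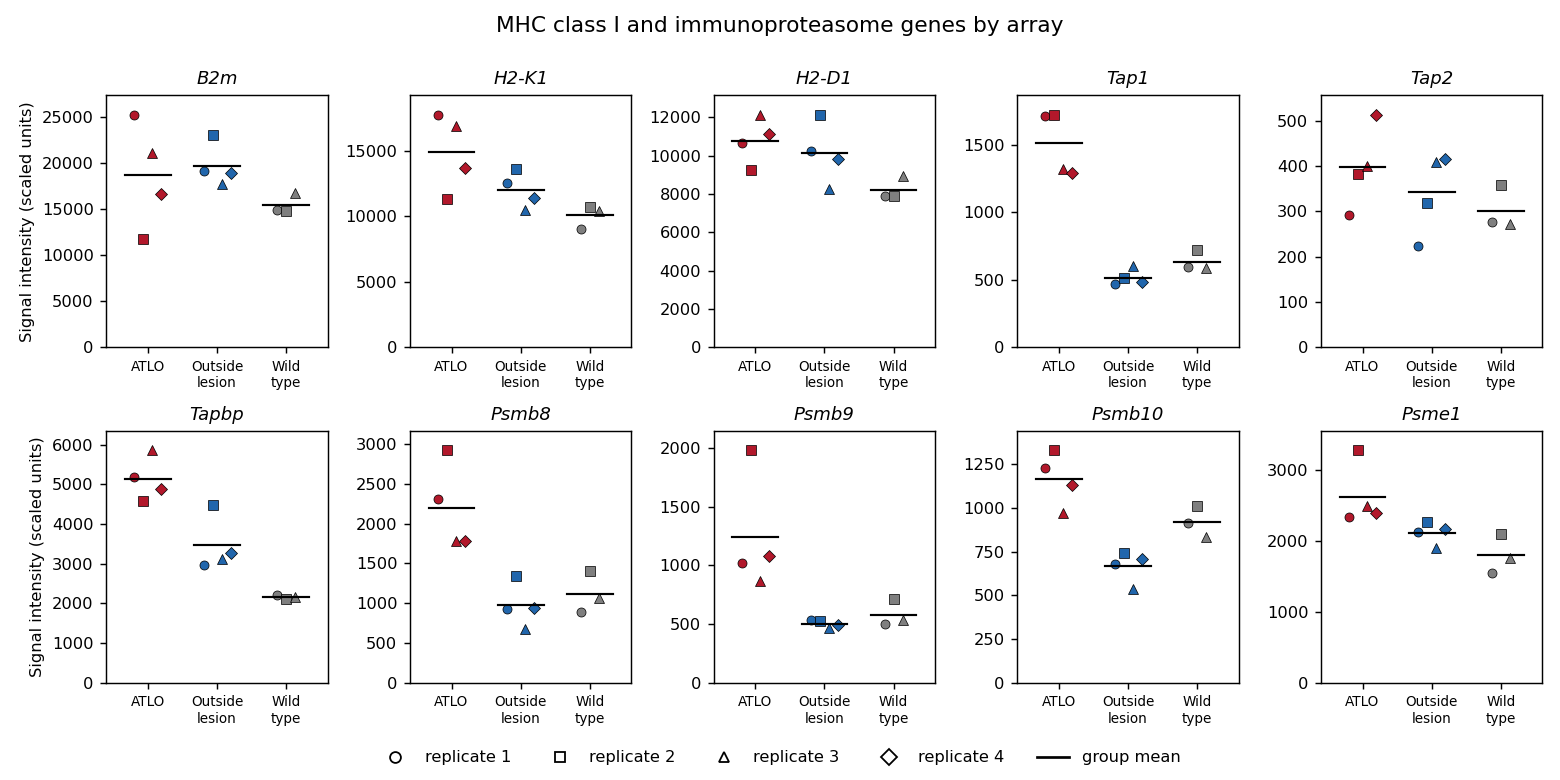
Signal of the 10 genes on each array, in the authors' scaled units on a linear axis from 0, with 1 panel per gene and the groups ATLO, outside-lesion and wild type from left to right. Points are arrays, read from the representing probe set of each gene, and horizontal lines are group means. All ATLO points lie above all outside-lesion points for Tap1, Tapbp, Psmb8, Psmb9, Psmb10 and Psme1, and the groups overlap for B2m, H2-K1, H2-D1 and Tap2.

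Among the peptide transporter genes, Tap1 showed the largest change of the 10. Its signal was 1713, 1722, 1319 and 1288 on the ATLO arrays and 466, 512, 600 and 484 on the outside-lesion arrays, against 592, 724 and 587 on the wild-type arrays. Every ATLO array lay above every other array, and outside-lesion and wild-type arrays overlapped. Tap1 averaged 1511 ± 240 in ATLO and 515 ± 59.6 in outside-lesion adventitia (SD, n = 4 each), a 2.92-fold difference (log2 change 1.55 ± 0.15 SE, limma adjusted p = 1.99e-05). The other 3 Tap1 probe sets read between 1 and 50 on all arrays and were not tested. Tap2, the partner subunit, read 291, 383, 401 and 513 in ATLO and 224, 318, 408 and 416 in outside-lesion adventitia, against 276, 358 and 271 in wild type. All 3 groups overlapped for Tap2. Its log2 change in ATLO against outside-lesion was 0.23 ± 0.23, with a 95% interval from -0.27 to 0.73 (limma adjusted p = 0.486).

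Tapbp, the bridge between transporter and class I molecule, read 5197, 4588, 5867 and 4894 in ATLO and 2972, 4489, 3115 and 3284 in outside-lesion adventitia, against 2210, 2122 and 2154 in wild type. The 3 groups formed separate ranges, although outside-lesion replicate 2 reached close to the lowest ATLO array. Tapbp was 1.50-fold higher in ATLO than in outside-lesion adventitia (log2 change 0.58 ± 0.15, limma adjusted p = 0.0102). A second, dimmer Tapbp probe set read 259, 299, 167 and 176 in ATLO and 73, 378, 82 and 118 in outside-lesion adventitia, against 308, 282 and 272 in wild type. It did not separate ATLO from outside-lesion (log2 change 0.77, limma adjusted p = 0.184), and averaging both Tapbp probe sets ended the call (0.68, limma adjusted p = 0.0615).

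The 3 inducible proteasome subunits all rose in ATLO against outside-lesion adventitia. Psmb8, which takes the place of Psmb5, read 2303, 2923, 1783 and 1783 in ATLO and 932, 1336, 678 and 940 in outside-lesion adventitia, against 885, 1399 and 1068 in wild type. The lowest ATLO array was above the highest outside-lesion and wild-type arrays. The difference between ATLO and outside-lesion was 2.28-fold (log2 change 1.19 ± 0.23, limma adjusted p = 0.00134). Psmb9, which takes the place of Psmb6, read 1024, 1982, 868 and 1076 in ATLO and 533, 524, 470 and 490 in outside-lesion adventitia, against 497, 711 and 533 in wild type. ATLO replicate 2 was the highest of its group, and the other 3 ATLO arrays were still above all arrays of the remaining groups. The difference was 2.33-fold (log2 change 1.22 ± 0.22, limma adjusted p = 0.00101). Psmb10, which takes the place of Psmb7, read 1232, 1332, 973 and 1130 in ATLO and 678, 745, 538 and 708 in outside-lesion adventitia, against 916, 1013 and 837 in wild type. Here the wild-type arrays lay between the other groups, overlapping with ATLO only. Psmb10 was 1.75-fold higher in ATLO than in outside-lesion adventitia (log2 change 0.81 ± 0.15, limma adjusted p = 0.00116).

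With the actin ratio added to the fit as a covariate, the log2 change in ATLO against outside-lesion was 0.77 for Psmb8, 0.73 for Psmb9 and 0.56 for Psmb10, and Tap1 kept 1.45. All 4 calls held, with limma adjusted p-values of 0.0421, 0.0253, 0.034 and 8.98e-04 in that order.

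Psme1, the PA28 activator subunit, read 2342, 3286, 2500 and 2392 in ATLO and 2132, 2268, 1907 and 2178 in outside-lesion adventitia, against 1552, 2105 and 1758 in wild type. The ATLO arrays lay above all others, but 3 of the 4 only narrowly. The log2 change in ATLO against outside-lesion was 0.30 ± 0.15 (95% interval -0.022 to 0.62, limma adjusted p = 0.147).

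B2m, the light chain shared by all class I molecules, did not separate ATLO from outside-lesion adventitia. It read 25249, 11791, 21057 and 16633 in ATLO and 19190, 23039, 17712 and 18954 in outside-lesion adventitia, against 14929, 14834 and 16745 in wild type. ATLO held both the highest and the lowest array of all 11, with replicate 2 the lowest. The log2 change was -0.13 ± 0.22, with a 95% interval from -0.61 to 0.35 (limma adjusted p = 0.703), and it was 0.075 without ATLO replicate 2. The second B2m probe set gave -0.066 (limma adjusted p = 0.848).

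For the heavy chains, the answer depended on the probe set. The brightest H2-K1 probe set read 17759, 11355, 16926 and 13729 in ATLO and 12526, 13577, 10492 and 11437 in outside-lesion adventitia, against 9043, 10716 and 10446 in wild type. ATLO and outside-lesion arrays overlapped, with a log2 change of 0.30 ± 0.18 (95% interval -0.087 to 0.69, limma adjusted p = 0.228). Another H2-K1 probe set, 1427746_x_at, read 7640, 8284, 8378 and 8652 in ATLO and 1950, 7442, 2412 and 3302 in outside-lesion adventitia, against 3373, 2330 and 2148 in wild type. All ATLO arrays of that probe set were close together and above the rest, and outside-lesion replicate 2 stood apart from its group near the ATLO level. Its log2 change was 1.33 ± 0.32 (limma adjusted p = 0.0065). The dimmer 1450534_x_at also rose, by 0.65 (limma adjusted p = 0.008), whereas 1451931_x_at gave 0.12 (limma adjusted p = 0.595). Averaging the H2-K1 probe sets gave a log2 change of 0.60 (limma adjusted p = 0.0106), and quantile normalization of the brightest one gave 0.50 (limma adjusted p = 0.00768). With equal array medians the brightest one gave 0.18 (limma adjusted p = 0.563).

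The brightest H2-D1 probe set read 10641, 9236, 12131 and 11111 in ATLO and 10262, 12096, 8281 and 9803 in outside-lesion adventitia, against 7870, 7885 and 8910 in wild type. The ATLO and outside-lesion ranges overlapped almost wholly, with a log2 change of 0.10 ± 0.16 (95% interval -0.25 to 0.45, limma adjusted p = 0.681). With equal array medians it was -0.020, and under quantile normalization 0.36 (limma adjusted p = 0.0665). A dimmer H2-D1 probe set, 1426324_at, read 1273, 1612, 1330 and 1496 in ATLO and 579, 838, 714 and 511 in outside-lesion adventitia, against 635, 734 and 646 in wild type. In this one the ATLO arrays stood clear of all others, with a log2 change of 1.13 ± 0.16 against outside-lesion (limma adjusted p = 1.95e-04). Of the other 7 H2-D1 probe sets, 2 were too dim to test. The other 5 were not called between ATLO and outside-lesion, with log2 changes of 0.73 for 1450170_x_at, 0.29 for 1451683_x_at, 0.092 for 1451784_x_at, -0.51 for 1427651_x_at and -0.93 for 1452544_x_at (limma adjusted p = 0.0829, 0.117, 0.679, 0.513 and 0.164). Without being called, 1451683_x_at did not overlap between these groups. Over all 21 tested probe sets of the 10 genes, 8 were higher in ATLO and 0 lower. Among all tested probe sets 17.9% were higher and 13.9% lower. Of the 21, 4 belong to H2-K1 and 7 to H2-D1, so they do not stand for separate genes. Class I heavy chain genes are close in sequence, and probe sets whose names end in x_at hold probes that can bind related transcripts, so a signal may come from more than 1 heavy chain gene.

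**Figure D2:**
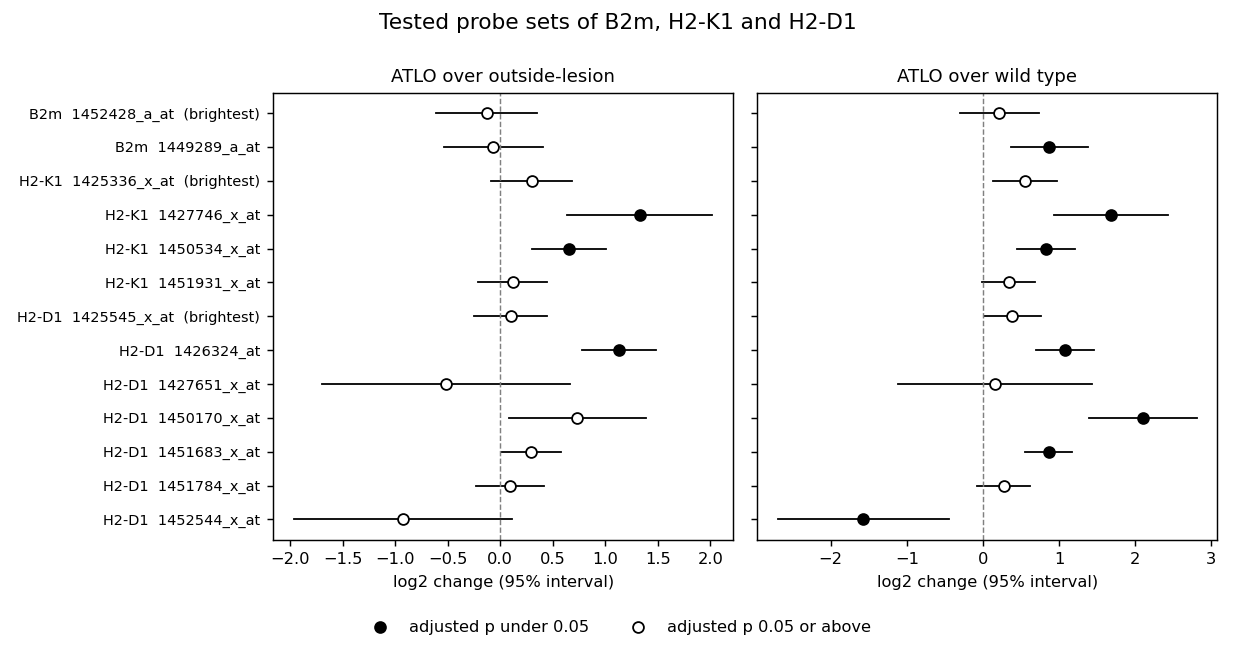
Log2 change (points) with 95% intervals (lines) of the 13 tested probe sets of B2m, H2-K1 and H2-D1, 1 row per probe set, in ATLO over outside-lesion (left) and ATLO over wild type (right), with separate axes. Filled points have an adjusted p under 0.05. On the left H2-K1 1427746_x_at and 1450534_x_at and H2-D1 1426324_at are filled, all above 0. On the right 6 are filled above 0 and H2-D1 1452544_x_at below it, and no probe set marked as the brightest of its gene is filled in either panel.

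Of the constitutive counterparts of the 3 inducible subunits, none was called higher in ATLO and Psmb7 was lower. Psmb5 read 2169, 1956, 1717 and 1642 in ATLO and 1966, 2296, 2261 and 2613 in outside-lesion adventitia (log2 change -0.29, limma adjusted p = 0.134). Psmb6 read 1774, 1592, 1667 and 1533 in ATLO and 1775, 1605, 2006 and 2194 in outside-lesion adventitia (log2 change -0.20, limma adjusted p = 0.282). Both overlapped between the groups. Psmb7 read 1229, 1602, 1016 and 1116 in ATLO and 1484, 2052, 2129 and 2545 in outside-lesion adventitia (log2 change -0.72 ± 0.22, limma adjusted p = 0.0221). Its groups overlapped as well, with ATLO replicate 2 above outside-lesion replicate 1.

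The difference in change between each inducible subunit and the one it replaces was tested directly. In ATLO against outside-lesion, the log2 signal of Psmb8 minus that of Psmb5 was 1.48 ± 0.25 higher (SE, n = 4 each). The same quantity was 1.42 ± 0.31 higher for Psmb9 minus Psmb6 and 1.53 ± 0.20 higher for Psmb10 minus Psmb7. Against wild type (n = 3), the 3 differences were 1.01 ± 0.27, 1.34 ± 0.35 and 0.92 ± 0.23 in the same order of pairs. The groups did not overlap in any of these 6 cases, and each gave p = 0.0286 when arrays were permuted exactly (two-sided), the smallest p the design allows in either comparison, or 0.0429 after Benjamini-Hochberg adjustment over 9 tests. In outside-lesion against wild type the differences were -0.47 ± 0.32, -0.078 ± 0.25 and -0.60 ± 0.29, with adjusted exact permutation p-values of 0.257, 0.771 and 0.147. These values compare changes, and the levels of different probe sets were not compared. In ATLO against wild type Psmb5 gave -0.037, Psmb6 -0.31 and Psmb7 -0.59, none of them called (limma adjusted p = 0.883, 0.128 and 0.0802). Psmb10 was not called there either (0.33, limma adjusted p = 0.143), so neither part of its pair was called alone. The pair differences were not refitted with the actin ratio, so the part of RNA quality in them was not tested.

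**Figure D3:**
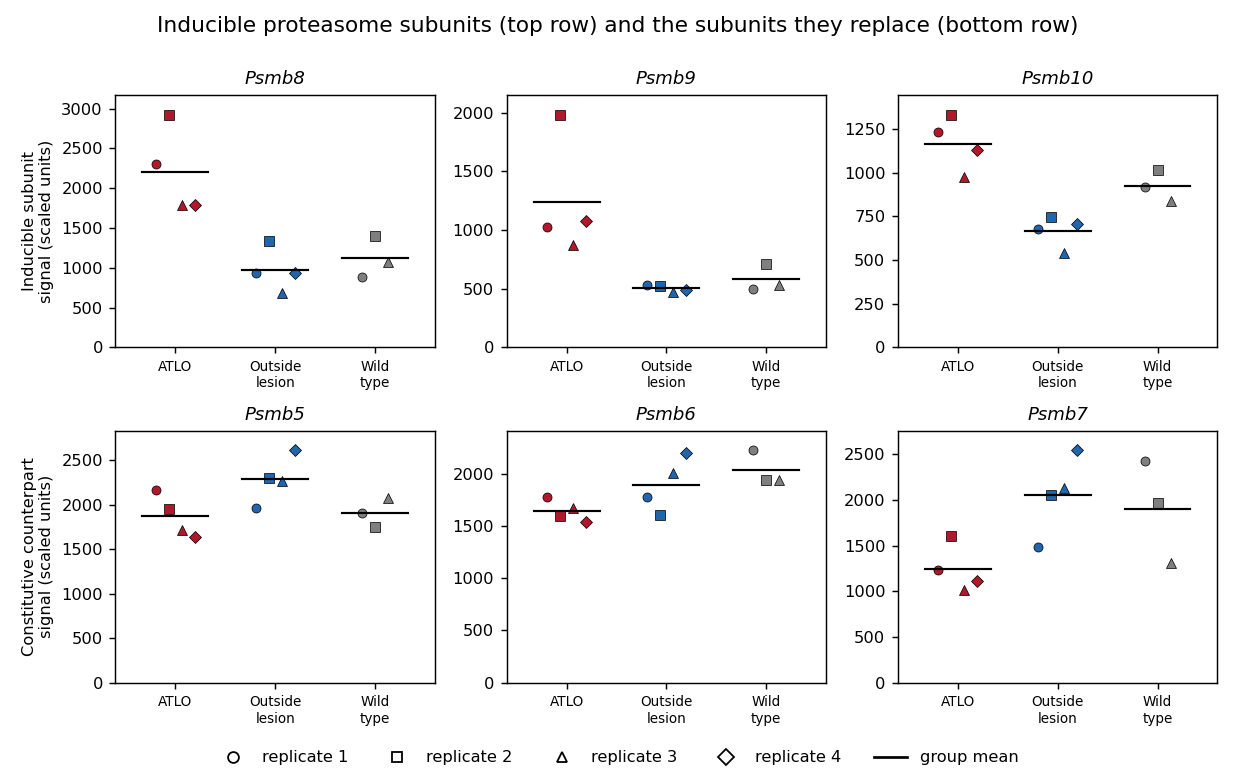
Signal on each array of the 3 inducible proteasome subunits (top row) and of the constitutive subunit each one replaces (bottom row), in the authors' scaled units from 0, with ATLO, outside-lesion and wild type from left to right. Points are arrays and lines are group means. The ATLO arrays are the high ones for Psmb8 and Psmb9 and not for Psmb5, Psmb6 or Psmb7.

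Of 11 listed helpers of peptide loading and folding in the endoplasmic reticulum, 10 were tested. In ATLO against outside-lesion adventitia 9 of them were higher and 0 lower, with a median log2 change of 0.73, beside 17.9% higher and 13.9% lower among all tested probe sets. The chaperone Hspa5 rose by 1.12 (limma adjusted p = 0.0103) and Pdia3, a disulfide isomerase of the peptide loading complex, by 1.10 (limma adjusted p = 0.00189). Sec61a1, the main subunit of the translocation channel, rose by 0.97 (limma adjusted p = 6.62e-04) and the disulfide isomerase Pdia6 by 0.90 (limma adjusted p = 0.00806). Erap1, which trims peptides for class I molecules, gave 0.36 (limma adjusted p = 0.228). In ATLO against wild type 3 of the 10 were called higher and 0 lower. Against wild type Pdia3 gave -0.23 in ATLO and -1.33 in outside-lesion adventitia (limma adjusted p = 0.499 and 0.0177). Most of these helpers also serve the folding of secreted proteins, and all 3 measured plasma cell markers rose in the same comparison, with summed signals of 26348 to 66856 in ATLO and 11293 to 15678 in outside-lesion adventitia; their part in the result was not tested.

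Most other proteasome genes were not called. Of 14 genes of the constitutive 20S core, 0 were higher and 2 lower in ATLO than in outside-lesion adventitia, namely Psmb7 and Psma6 (log2 change -0.62, limma adjusted p = 0.0157). That share of lower calls is near the 13.9% of all tested probe sets. Of 20 tested subunits of the 19S cap, 0 were higher and 1 lower, Psmd4, the ubiquitin receptor (-0.40, limma adjusted p = 0.0361). Of 6 tested proteasome regulators and assembly factors limma called 0, and 1 was lower at an unadjusted p under 0.05. The platform annotation gave Psme2, the partner of Psme1, no probe set of its own. Of 5 tested cytosolic peptidases, only Lap3, a leucine aminopeptidase, was called, as lower (-0.78, limma adjusted p = 0.00387).

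Of 8 tested other class I heavy chains and like molecules, 1 was higher and 2 lower in ATLO than in outside-lesion adventitia, with a median log2 change of -0.18. The share called is near the 31.9% of all tested probe sets. H2-M3, which presents formylated peptides, read 1261, 2117, 1310 and 1191 in ATLO and 442, 552, 373 and 505 in outside-lesion adventitia (log2 change 1.63 ± 0.20, limma adjusted p = 6.62e-05). H2-Q10, a secreted class I molecule best known from liver, read 184, 327, 350 and 286 in ATLO and 1003, 746, 1150 and 1337 in outside-lesion adventitia (-1.89 ± 0.22, limma adjusted p = 4.97e-05). Cd1d1, which presents lipids, was also lower (-1.36 ± 0.19, limma adjusted p = 1.74e-04). H2-M3 and H2-Q10 thus lay clear of the outside-lesion arrays on opposite sides.

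Of 13 tested genes of the interferon-gamma pathway and the class I and II regulators, 8 were higher in ATLO than in outside-lesion adventitia and 0 lower. Their median log2 change was 0.78. Among all tested probe sets 17.9% were called higher and 13.9% lower. Irf8, a transcription factor of myeloid and B cells, rose by 2.69 ± 0.31 (limma adjusted p = 4.43e-05), and Ciita, the master regulator of MHC class II, by 1.75 ± 0.31 (limma adjusted p = 8.03e-04). Irf2 rose by 1.06 (limma adjusted p = 0.00432) and the kinase Jak2 by 0.95 (limma adjusted p = 7.27e-04). Irf1, a factor known to drive Tap1 and Psmb9, read 1466, 1896, 1401 and 1323 in ATLO and 849, 945, 734 and 759 in outside-lesion adventitia, against 785, 898 and 979 in wild type. Its ATLO arrays were all above the rest (log2 change 0.88 ± 0.15 against outside-lesion, limma adjusted p = 6.18e-04). The Ifng probe set was too dim to test, with 34, 49, 20 and 62 in ATLO and 1, 4, 14 and 4 in outside-lesion adventitia, against 26, 6 and 25 in wild type. Nlrc5 has no probe set assigned to it alone and was not analysed here.

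All 4 tested receptors that bind class I molecules or the related ligands were higher in ATLO than in outside-lesion adventitia. Of all tested probe sets 17.9% were called higher. Pirb, an inhibitory receptor of myeloid and B cells, read 1259, 1039, 1540 and 1206 in ATLO and 174, 154, 144 and 233 in outside-lesion adventitia (log2 change 2.85 ± 0.21, limma adjusted p = 6.85e-06). Klrd1, a subunit of natural killer cell receptors, rose by 2.58 ± 0.23 (limma adjusted p = 1.37e-05). Cd8b1, a chain of the CD8 coreceptor, rose by 2.02 ± 0.43 (limma adjusted p = 0.00302) and Klrk1, an activating receptor, by 1.58 ± 0.43 (limma adjusted p = 0.0123). Cd8a was too dim to test.

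Markers of the cells of the tissue changed in the same comparison, in which 17.9% of all tested probe sets were called higher and 13.9% lower. All 6 leukocyte markers rose, with a summed signal of 31536 to 38637 in ATLO and 5736 to 7309 in outside-lesion adventitia, against 4483 to 11897 in wild type. Ptprc, the common leukocyte antigen CD45, read 6196, 7619, 5786 and 6536 in ATLO and 825, 1082, 1047 and 1088 in outside-lesion adventitia, against 706, 2394 and 699 in wild type. Its log2 change of 2.69 ± 0.31 (limma adjusted p = 4.40e-05) was larger than that of any of the 10 genes. All 6 tested T cell markers rose. Summed over all 8 measured T cell markers, the signals were 2298 to 5546 in ATLO and 458 to 756 in outside-lesion adventitia. These sums include Cd4 and Cd8a, which were too dim to test. For B cells 5 of 6 rose (3576 to 13825 in ATLO, 508 to 1756 outside lesions), and for macrophages 6 of 7 (37961 to 63680 in ATLO, 13939 to 24428 outside lesions). Of dendritic cell markers 3 of 4 tested rose, and of cytotoxic and natural killer cell markers 3 of 4. Adventitial fibroblast markers were higher for 5 of 8 (54582 to 103671 in ATLO, 29911 to 78587 outside lesions), endothelial markers lower for 4 of 6, smooth muscle markers lower for 2 of 5 and adipocyte markers lower for 4 of 5. Of 4 tested nerve markers 0 were called. In bulk tissue more cells of a type and more RNA per cell cannot be told apart, and the part of these cells in the changes of the 10 genes was not tested.

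**Figure D4:**
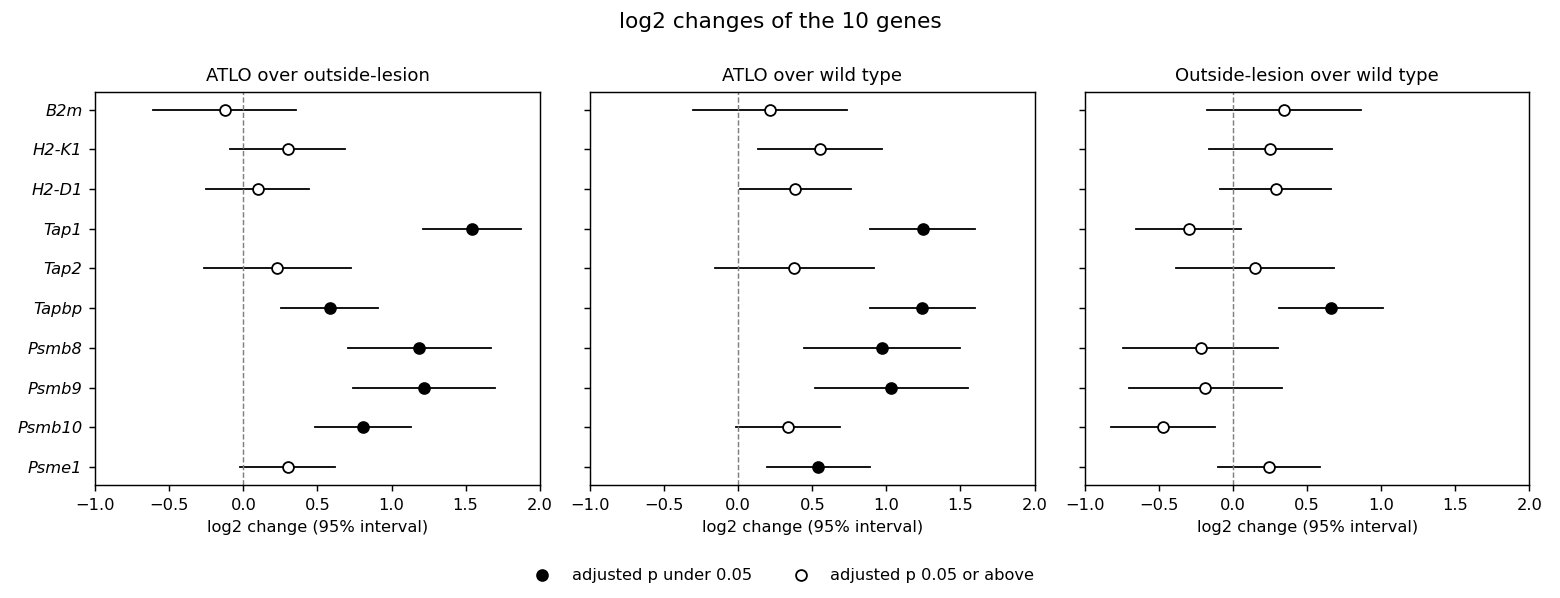
Log2 change of the 10 genes (points) with 95% intervals (lines) in ATLO over outside-lesion, ATLO over wild type and outside-lesion over wild type, from left to right, on a common axis. Filled points have an adjusted p under 0.05. Tap1, Tapbp, Psmb8 and Psmb9 are filled in both ATLO panels, Psmb10 only in the first, Psme1 only in the second, and Tapbp alone in the third.

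In ATLO against wild type, which uses the same ATLO arrays, Tap1, Tapbp, Psmb8, Psmb9 and Psme1 were higher. By limma's adjusted p, 5 of the 10 genes were higher and 0 lower, while 26.8% of all tested probe sets were called, 13.4% in each direction. All 10 log2 changes were positive, from 0.22 to 1.25 with a median of 0.55, against a median of -0.046 over all genes tested. The arrays did not overlap for 7 genes, higher in ATLO each time, compared with 17.3% of all tested probe sets. Tap1 was 2.37-fold higher (log2 change 1.25 ± 0.17, limma adjusted p = 2.71e-04) and Tapbp also 2.37-fold (1.24 ± 0.16, limma adjusted p = 2.66e-04). Psmb9 was 2.05-fold higher (1.03 ± 0.24, limma adjusted p = 0.00724) and Psmb8 1.96-fold (0.97 ± 0.24, limma adjusted p = 0.0107). Psme1 rose by 0.54 ± 0.16 (limma adjusted p = 0.025). Psmb10, called against outside-lesion, gave 0.33 ± 0.16 (limma adjusted p = 0.143).

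The calls against wild type held less firmly for some genes. Psme1 lost its call without ATLO replicate 2, wild-type replicate 1 or wild-type replicate 3 (limma adjusted p = 0.0526, 0.114 and 0.0739), and Psmb8 without wild-type replicate 1 (limma adjusted p = 0.0545). Averaging both Tapbp probe sets gave 0.42 (limma adjusted p = 0.279).

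For the class I molecule itself, B2m gave a log2 change of 0.22 ± 0.24 in ATLO against wild type by its brighter probe set (limma adjusted p = 0.538). The other B2m probe set, 1449289_a_at, read 26238, 12682, 20172 and 17909 in ATLO and 18987, 23966, 16547 and 19159 in outside-lesion adventitia, against 10121, 9673 and 10713 in wild type. By that one B2m was higher in ATLO (0.87 ± 0.24, limma adjusted p = 0.0151) and in outside-lesion adventitia (0.94 ± 0.24, limma adjusted p = 0.0482) than in wild type. Only by this probe set was B2m called in any comparison, and wild type is the group with the different amplification. H2-K1 gave 0.55 ± 0.19 (limma adjusted p = 0.0503), just outside the threshold, with no overlap. Of the 22 alternatives, it passed in 6 besides averaging. The limma adjusted p was 0.0487 with a lower floor, 0.0392 with a stricter filter and 0.0496 without an intensity trend. It was 0.0276 with the actin covariate, 0.014 without ATLO replicate 2 and 0.0443 without outside-lesion replicate 2. H2-K1 averaged over its probe sets gave 0.85 (limma adjusted p = 0.00317). In the remaining alternatives H2-K1 did not pass, with limma adjusted p-values up to 0.175. Quantile normalization was among these, with 0.33 (limma adjusted p = 0.0829).

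H2-D1 gave 0.39 ± 0.17 in ATLO against wild type by its brightest probe set (limma adjusted p = 0.117), also without overlap. Its dimmer probe set 1450170_x_at read 267, 407, 300 and 510 in ATLO and 116, 251, 228 and 328 in outside-lesion adventitia, against 74, 90 and 88 in wild type, a log2 change of 2.10 ± 0.33 in ATLO (limma adjusted p = 7.25e-04) and 1.37 in outside-lesion (limma adjusted p = 0.0418) against wild type. The H2-D1 probe set 1451683_x_at read 4890, 4890, 5151 and 5480 in ATLO and 3999, 4716, 3578 and 4460 in outside-lesion adventitia, against 2666, 2662 and 3088 in wild type. It was higher than wild type in ATLO (0.87 ± 0.15, limma adjusted p = 0.00109) and in outside-lesion adventitia (0.57 ± 0.15, limma adjusted p = 0.0489). In both of these probe sets both Apoe-deficient groups were above wild type without overlap. By 1426324_at H2-D1 was higher in ATLO than in wild type (1.08 ± 0.18, limma adjusted p = 9.45e-04), but not called in outside-lesion (-0.047, limma adjusted p = 0.899). The H2-K1 probe sets 1427746_x_at and 1450534_x_at were also higher in ATLO than in wild type (1.68 and 0.83, limma adjusted p = 0.00371 and 0.00439). The H2-D1 probe set 1452544_x_at ran the other way, with 2, 26, 38 and 69 in ATLO against 92, 140 and 153 in wild type (-1.57 ± 0.52, limma adjusted p = 0.0397), where 2 of the 4 ATLO arrays lay under the floor. Over the 21 tested probe sets of the 10 genes, 11 were higher in ATLO than in wild type and 1 lower. Among all tested probe sets 13.4% were called in each direction.

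The pathway lists also held called genes against wild type, where 13.4% of all tested probe sets were called in each direction. Of the 10 loading and folding helpers, 3 were higher and 0 lower in ATLO than in wild type: Uggt1, the glucosyltransferase that checks glycoprotein folding (log2 change 1.31, limma adjusted p = 9.90e-04), Sec61a1 (0.92, limma adjusted p = 0.0029) and Ganab, a glucosidase subunit (0.64, limma adjusted p = 0.0203). Of the 13 interferon pathway genes, 8 were higher and 0 lower, among them Irf8 (2.25, limma adjusted p = 5.29e-04), Irf2 (1.25, limma adjusted p = 0.00375), Ciita (1.16, limma adjusted p = 0.0214), Jak2 (0.88, limma adjusted p = 0.00345) and Irf1 (0.77, limma adjusted p = 0.00425). Of the 14 constitutive 20S genes, Psmb4 was higher (1.13, limma adjusted p = 5.95e-04) and Psmb2 lower (-0.53, limma adjusted p = 0.0465). Of the 20 tested 19S subunits, 0 were higher and 2 lower, Psmd4 (-0.84, limma adjusted p = 0.00141) and Psmc6 (-0.47, limma adjusted p = 0.0262). Of the 6 regulators and assembly factors, 1 was lower, the assembly chaperone Psmg1 (-0.40, limma adjusted p = 0.049). Of the 5 peptidases, Lap3 was lower (-0.77, limma adjusted p = 0.00862) and Nrd1 higher (0.42, limma adjusted p = 0.0256). Of the 4 tested class I receptors, 3 were higher, namely Pirb (2.84, limma adjusted p = 1.87e-05), Klrd1 (2.21, limma adjusted p = 1.08e-04) and Cd8b1 (1.87, limma adjusted p = 0.0102), and Klrk1 gave 0.96 (limma adjusted p = 0.139). H2-M3 was higher (0.79, limma adjusted p = 0.0167) and H2-Q10 lower (-1.82, limma adjusted p = 2.71e-04), as was Cd1d1 (-0.76, limma adjusted p = 0.0173).

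Between outside-lesion adventitia and wild type, Tapbp alone of the 10 genes was called by its representing probe set, 1.58-fold higher (log2 change 0.66 ± 0.16, limma adjusted p = 0.0463). So 1 of the 10 genes was higher and 0 lower, while 3.26% of all tested probe sets were called, 1.72% as higher and 1.54% as lower. Over the 21 tested probe sets of the 10 genes, 4 were higher and 0 lower. Besides Tapbp these were the second B2m probe set and the H2-D1 probe sets 1450170_x_at and 1451683_x_at, with the values given above. The call of Tapbp was lost when any 1 array was left out other than ATLO replicate 2 or outside-lesion replicate 2 (limma adjusted p up to 0.147), and averaging the Tapbp probe sets turned it to -0.25. The log2 changes of the 10 genes ran from -0.47 to 0.66, with a median of 0.19, against -0.12 over all genes tested. The arrays did not overlap for 2 genes that were higher, Tapbp and B2m, and 1 that was lower, Psmb10, compared with 8.15% and 13.3% of all tested probe sets. B2m gave 0.34 ± 0.24 (limma adjusted p = 0.412) and Psmb10 -0.47 ± 0.16 (limma adjusted p = 0.121). Tap1, Psmb8 and Psmb9, the genes with the largest changes in ATLO against outside-lesion, gave -0.30, -0.22 and -0.19 (limma adjusted p = 0.292, 0.62 and 0.673). Among the pathway lists, Pdia3 was lower (-1.33, limma adjusted p = 0.0177) and Psmb4 higher (1.05, limma adjusted p = 0.0148) in outside-lesion adventitia than in wild type.

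Within groups, the order of the arrays differed among the genes. Tap1, Psmb8, Psmb9, Psmb10 and Psme1 each read highest in ATLO replicate 2 among the ATLO arrays and in wild-type replicate 2 among the wild-type arrays, which 14.0% of all tested probe sets did. The same arrays had the highest Ptprc signal of their groups. Among the outside-lesion arrays the order differed: Psmb8, Psmb10 and Psme1 read highest in replicate 2, as did B2m, H2-K1, H2-D1 and Tapbp, while Tap1 read highest in replicate 3, Psmb9 in replicate 1 and Ptprc in replicate 4. ATLO replicate 2 also had the lowest actin 3′ to 5′ ratio of all arrays, 1.714. B2m, H2-K1, H2-D1 and Tapbp read lowest in ATLO replicate 2. The part of the leukocyte markers and of RNA quality in this order was not tested.

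The mean profile of the 10 genes, as log2 values centred on each gene's mean, stood at 0.35 to 0.47 on the ATLO arrays, -0.33 to -0.018 on the outside-lesion arrays and -0.40 to -0.14 on the wild-type arrays. ATLO was the high group, and the other groups overlapped. Of 9035 genes ranked by their root mean square difference from this profile over the 11 arrays, the nearest were Eif3f (0.092), Snrpg (0.093), Shkbp1 (0.097) and Leprot (0.102). Macroh2a1 (0.107), Eef1b2 (0.108), Scamp2 (0.11) and Gas5 (0.111) followed. The median over all ranked genes was 0.501. The 10 genes themselves lay at 0.178 for Psme1 to 0.429 for Tap1. The 8 were picked as the nearest of all 9035 ranked genes, so their smaller distances follow from that choice.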

How the data were processed

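Per the labels' protocols, RNA from laser-dissected adventitia was amplified and hybridised to 11 Affymetrix arrays. The authors deposited signal intensities on a linear scale, from GCOS 1.4 per the submitters' processing notes. With 2% trimmed at each end, all arrays had the same mean, so they were scaled before deposit. No source used here names the summary method. Intensities have no count behind them, so the number of arrays limits the precision.

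Signals under 35.1 (20th percentile overall) were set to that floor, which understates the changes of dim probe sets, and taken to log2. Of 22690 probe sets, 64 controls were left out, and 20380 of the rest had 1 gene symbol, 691 several and 1555 none. Testing required 3 or more arrays above the array's 40th percentile. Group means were estimated with limma 3.58.1 (R 4.3.3) from the 11 arrays together, using eBayes with an intensity trend. Benjamini-Hochberg adjustment covered all 14988 tested probe sets. Errors of log2 changes are standard errors. Subunit pairs were compared by exact permutation over arrays.

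The members, lists and tests were chosen with earlier results of these data known. Text names all 10 members with their probe sets, the 3 constitutive counterparts, Irf1, Nlrc5 and Ifng, up to 4 called genes of each pathway list and comparison with the largest change, Apoe, and the 8 genes nearest in pattern. Cell type marker lists are given by counts, and some of them also by summed signals. Ptprc, Erap1, Cd8a, Psme2 and genes repeated in a further comparison were added after their values were seen. The alternatives tried were other scalings (quantile, equal medians), floors and filters, fits of the compared groups alone, a replicate block, no trend, an actin 3′ to 5′ covariate, averaged probe sets and leaving out each array. Across the groups, deviations of same-numbered arrays correlated at 0.04 to 0.153 (ATLO and outside-lesion), 0.005 to 0.273 (ATLO and wild type) and -0.178 to 0.121 (outside-lesion and wild type). Different-numbered arrays gave -0.198 to 0.152, -0.198 to 0.189 and -0.177 to 0.238 in the same order. These ranges cannot settle whether arrays were paired. The numbers were taken as names only, and the permutation tests were unpaired. Promoters are RefSeq's, from GRCm38.p6.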

Additional observations from a re-analysis of the deposited data

Results flagged for a closer look

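Psme1 on ATLO replicate 2 read 3286, against 2342 to 2500 on the other 3 ATLO arrays. It stood apart because its gap to the nearest array was 0.832 of the group's range, just above Dixon's 95% critical value for 4 samples. It was the only one among 26 groups of arrays checked, and chance alone gives such a value in about 1 in 20 groups.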

How the results depend on the processing

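Between ATLO and outside-lesion, 5 to 6 of the 10 genes were called under all 22 alternatives, beside 2552 to 4855 of all probe sets. The genes called were not always the same: with averaged probe sets Tapbp lost its call and H2-K1 gained one. Between ATLO and wild type 3 to 6 of the 10 were called, beside 2740 to 4241 of all probe sets. The count was 3 without wild-type replicate 1, where Psmb8 and Psme1 missed the threshold. In outside-lesion over wild type the count was 0 to 1 over the arrays left out, and 0 with no filter, only the compared groups, the replicate block, no trend, the actin covariate or averaged probe sets. Over all probe sets the calls for outside-lesion against wild type numbered 301 with no filter, 202 with only the compared groups, 189 with the replicate block, 248 with no trend, 86 with the actin covariate and 21 to 886 over the arrays left out, so a call there rests on the setting. The actin covariate gave 2552 calls between ATLO and outside-lesion.

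Directions that turned were all of uncalled values, except Tapbp. Under quantile normalization B2m had a log2 change of 0.069 in ATLO against outside-lesion, -0.068 in ATLO against wild type and -0.14 in outside-lesion against wild type. In the last comparison H2-K1 was at -0.17, H2-D1 at -0.084 and Psmb9 minus Psmb6 at 0.023. With equal medians H2-D1 was at -0.020 in ATLO against outside-lesion. The actin covariate gave 0.19 for B2m in that comparison, and 0.077 for Psmb8 and 0.16 for Psmb9 in outside-lesion against wild type. Averaging gave -0.25 for Tapbp there, and B2m in ATLO against outside-lesion ranged from -0.29 to 0.075 over the arrays left out, with 0.075 without ATLO replicate 2. The cause was not tested.

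With each array left out, Psmb8 minus Psmb5 ranged from 1.32 to 1.64 in ATLO against outside-lesion, Psmb9 minus Psmb6 from 1.15 to 1.57 and Psmb10 minus Psmb7 from 1.40 to 1.69. Against wild type they ranged from 0.85 to 1.24, 1.08 to 1.53 and 0.72 to 1.10. With fewer arrays the smallest exact permutation p rises, so adjusted p-values reached 0.0857 and 0.147. In outside-lesion over wild type the ranges were -0.63 to -0.23, -0.25 to 0.11 and -0.81 to -0.42, with Psmb9 minus Psmb6 at 0.009 without outside-lesion replicate 4 and 0.11 without wild-type replicate 2. No other call of the 10 genes changed under the replicate block than that of Tapbp between outside-lesion and wild type (0.68, limma adjusted p = 0.0856).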
